A study of Mus musculus with 2 samples.

Results

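The proteasome is the protease complex that degrades ubiquitin-tagged proteins, and its genes were read out here in the main subsets of conventional dendritic cells (DCs) of the mouse spleen. Members were all genes with a probe set for that gene alone whose symbol is Psm, a letter from a to g and a number, and each gene was represented by its brightest probe set. There were 47 such genes among 18194 on the arrays, covered by 100 probe sets. Values are RMA log2 signals, and a gene counted as measured where its higher value was at or above 3.85, the median over all probe sets and both arrays. By that floor 45 of the 47 were measured, and the lowest value of any measured member was 6.18. The exceptions were Psma8, a testis α subunit gene (3.78 on the CD8+ array and 3.69 on the CD8- array), and Psmb11, the catalytic subunit gene of the thymus proteasome (2.97 and 3.13).

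The cells came from C57BL/6 mice carrying B16 melanoma cells that made Flt3 ligand, a cytokine that expands DCs, and were taken 10 to 12 days after injection of the tumour cells. Both groups shared this tumour and cytokine background and neither was stimulated. After magnetic enrichment, CD11c+ cells without CD3 and B220 were sorted into CD8α+ cells (CD8+ DCs) and CD8α- cells (CD8- DCs), and total RNA of each was hybridised to 1 array. How many mice gave the RNA of an array is not given in the sources used here. Each population has a single array and thus no replicate, and no test was possible. Variation between animals, sorts or hybridisations cannot be told apart from the differences given here. Because these are bulk samples on quantile-normalised arrays, fewer cells of a type and less RNA per cell cannot be told apart.

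The arrays carried the markers of their labels. All 8 conventional DC markers measured were above the floor on both arrays. The 8 measured CD8+ DC markers were all at least 1.5-fold higher in the CD8+ array, and the 7 measured CD8- DC markers were all at least 1.5-fold higher in the CD8- array. The CD8+ list includes Cd8a, the gene of the sort marker. All 8 CD8+ DC markers were at or above the floor on the CD8- array too, while 4 of the 7 CD8- DC markers were so on the CD8+ array. Of T cell, NK cell, neutrophil and erythroid markers, 1 gene of each list was measured. Macrophage markers differed between the arrays, with 2 of 8 at or above the floor on the CD8+ array and 5 of 8 on the CD8- array, and a summed linear signal of 122 against 459. Of these, Adgre1 was at 4.63 on the CD8+ array and 8.22 on the CD8- array, and C1qa, C1qb and C1qc exceeded the floor only on the CD8- array (5.30, 5.41 and 4.63), while Vcam1 was at 5.52 and 4.66. The red pulp macrophage genes Spic (3.40 and 3.74) and Cd5l (2.78 and 2.85) were below the floor on both. The B cell and plasmacytoid DC lists had similar sums on both arrays (996 against 1127, and 543 on each), but single markers differed in opposite directions. Cd79b was at least 6.72-fold and Tcf4 4.24-fold higher in CD8- DCs, while Ms4a1 was 1.68-fold and Ccr9 4.26-fold higher in CD8+ DCs. Ighm (9.83 and 9.93) gave most of the B cell sum. Melanoma markers were low, with 3 of 7 measured and sums of 113 and 109. The part of any other cell type in the differences described here was not tested.

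In the cell, a barrel of α and β subunits, the 20S core, holds the proteolytic sites in its β rings. A 19S particle, made of a base with ATPases and a lid, recognises ubiquitinated substrates, unfolds them and feeds them into the core. In cells of the immune system, and in other cells after interferon-γ, the catalytic β subunits can be replaced by the inducible subunits β1i, β2i and β5i of the immunoproteasome, which changes the peptides made for MHC class I. CD8+ DCs are known for presenting antigen from other cells on class I.

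Proteasome transcripts differed little between the subsets. No measured member reached 2-fold in either direction. Of the 11404 measured genes, 3.55% did so on the CD8+ side and 5.97% on the CD8- side. At 1.5-fold, 2 of 45 members were higher in CD8+ DCs (8.49% of all measured genes were) and 1 was higher in CD8- DCs (11.5% of all measured genes). These were Psmb9 and Psme1 on the CD8+ side and Psmg2 on the CD8- side. Counting differences of any size, 27 of 45 members were higher in CD8+ DCs, beside 52.6% of all measured genes, and 18 were lower. The median log2 difference, CD8+ minus CD8-, was 0.06 over the 45 members, with quartiles at -0.11 and 0.26, and 0.03 over all measured genes, with quartiles at -0.24 and 0.26.

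How far probe sets of a gene disagree within this pair of arrays can be read from genes with several measured probe sets. The pooled SD of the log2 difference among a gene's probe sets was 0.30 over 5183 such genes, and over the 22 members with several measured probe sets it was 0.18. It does not include variation between mice or sorts, and what part of it is technical was not tested. Of the 45 measured members, 36 differed by less than 0.30, beside 57.4% of all measured genes. Of the remaining members, 8 were higher in CD8+ DCs and 1 was higher in CD8- DCs. All measured probe sets had the same sign in 12 of those 22 members and mixed signs in 10. Some of these probe sets lie near the floor, such as a Psma1 probe set at 3.82 and 3.91.

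**Figure D1:**
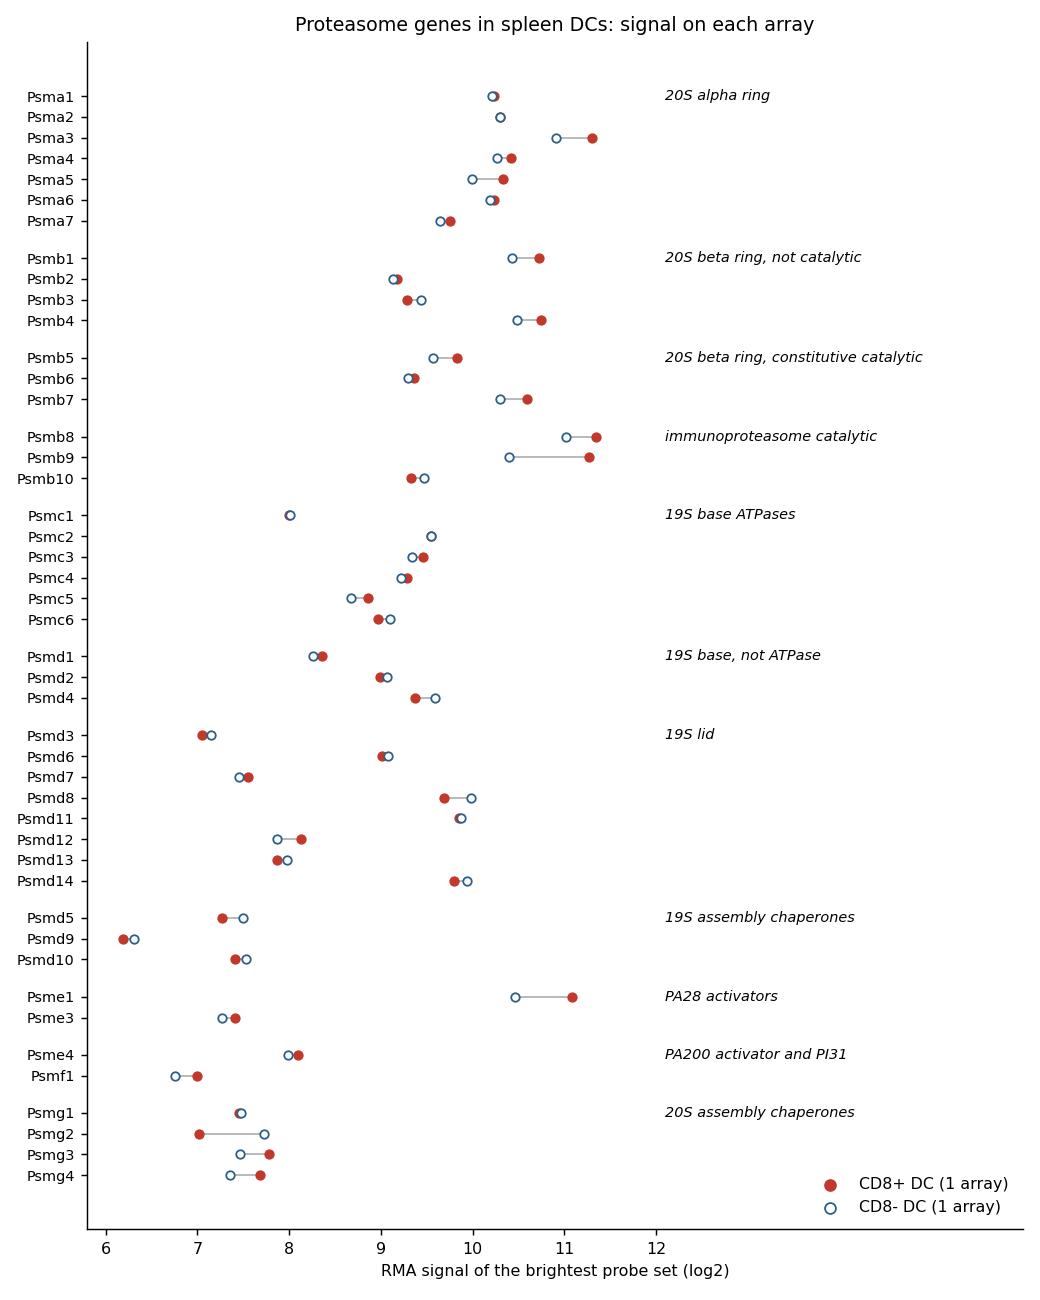
RMA log2 signal of the brightest probe set of each of the 45 measured proteasome genes, grouped by role, in CD8+ DCs (filled) and CD8- DCs (open), 1 array each. Most pairs of points nearly coincide, and the widest gaps are those of Psmb9, Psmg2 and Psme1; positions along the axis are not comparable between genes, since probe sets differ in response.

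The 3 inducible catalytic subunits did not differ alike. Psmb9, which encodes β1i (LMP2), had the largest difference of any member, with a CD8+ signal of 11.27 and a CD8- signal of 10.39. That is 1.83-fold, a log2 difference of 0.87 from its single probe set. Psmb8, which encodes β5i (LMP7), was at 11.35 and 11.02, or 1.25-fold higher in CD8+ DCs, and its 2 probe sets differed by 0.33 and 0.39. Psmb10, which encodes β2i (MECL-1), was slightly lower in CD8+ DCs, at 9.33 against 9.47, on 1 probe set. Only the Psmb9 difference is larger than 1.5-fold, and that of Psmb10 is less than the spread between probe sets of a gene.

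The constitutive subunits that these replace were all higher in CD8+ DCs by small amounts. Of all measured genes, 52.6% were higher in CD8+ DCs by any amount. Psmb5 (β5, the chymotrypsin-like site) was at 9.83 and 9.56, a log2 difference of 0.27. Psmb6 (β1, the caspase-like site) was at 9.36 and 9.30, and Psmb7 (β2, the trypsin-like site) at 10.60 and 10.30. Each of the 3 had 1 probe set, and none reached 1.5-fold.

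Each inducible subunit was also set against its constitutive counterpart within the arrays. For β1, the log2 difference of Psmb9 exceeded that of Psmb6 by 0.81, so the ratio of inducible to constitutive signal was 1.75-fold higher in CD8+ DCs. For β5, Psmb8 and Psmb5 differed by nearly the same amount, with a contrast of 0.06. For β2 the contrast ran the other way, since the log2 difference of Psmb10 lay below that of Psmb7 and the contrast was -0.44. A contrast joins 2 differences, so its spread is wider than the SD of 0.30 between probe sets of a gene. The β2 contrast is thus not clearly beyond that spread, and the β5 contrast lies within it. These contrasts show unequal differences of 2 probe sets and give neither subunit's protein level nor its share in the particles.

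**Figure D2:**
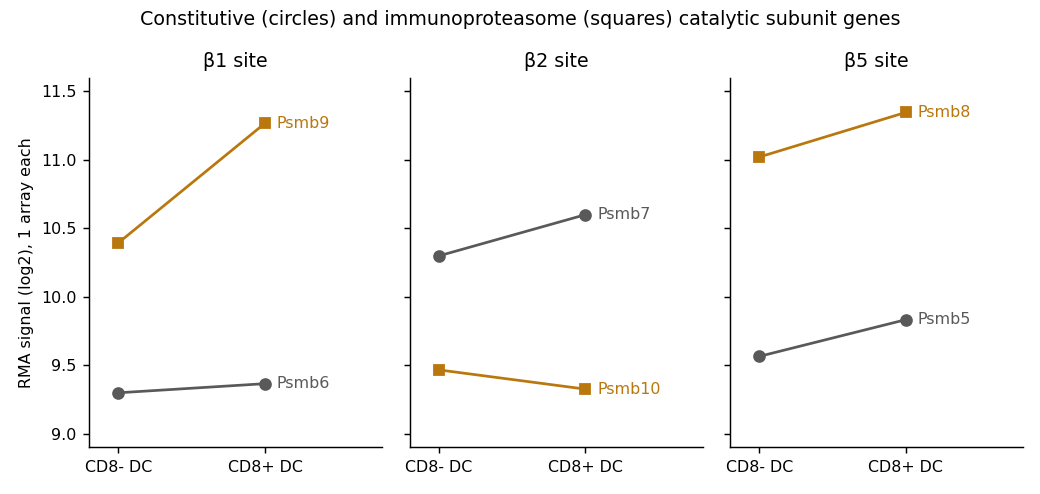
RMA log2 signal (1 array each) of the constitutive subunit gene (circles) and the immunoproteasome subunit gene (squares) at the β1, β2 and β5 catalytic sites, in CD8- and CD8+ DCs. The Psmb9 line is the steepest (10.39 to 11.27), the Psmb8 and Psmb5 lines run nearly parallel, and the Psmb7 and Psmb10 lines draw apart towards CD8+ DCs; slopes can be compared, heights of different genes cannot.

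Psmb9 and Psmb8 lie side by side with the peptide transporter genes in the MHC region of chromosome 17, in the order Psmb9, Tap1, Psmb8, Tap2. All 4 genes were higher in CD8+ DCs, beside 52.6% of all measured genes. The log2 differences along that order were 0.87, 0.46, 0.33 and 0.87. Tap1 was at 9.71 and 9.25, with a second probe set at -0.13, and Tap2 was at 9.03 and 8.16 on 1 probe set. The outer genes of the row thus differed by 1.83-fold each and the inner ones by less than 1.5-fold.

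Psmb9 and Tap1 are transcribed away from each other, and in RefSeq (GRCm38.p6) their starts lie 226 bases apart. The whole stretch between them is given here first, then the 250 bases before the starts of Psmb8, Psmb10 and Psme1, since these are the interferon-inducible members that differed most or differed from each other, and last the 60 bases before the start of Psmb5 for a constitutive subunit. All are from RefSeq's GRCm38.p6 promoter table, 5′ to 3′ on the strand of the gene. Capitals mark matches to any of 4 motifs, searched on both strands in the 250 bases before the start. These were the interferon-γ-activated sequence (GAS, TTCNNNGAA), the core of the interferon-stimulated response element (ISRE, GAAANNGAA), a core of the antioxidant response element (ARE, TGACNNNGC), the kind of site bound by the factor Nfe2l1 that drives proteasome genes, and the CCAAT box (CCAAT).
Psmb9 to Tap1, chr17:34187331-34187555, minus strand: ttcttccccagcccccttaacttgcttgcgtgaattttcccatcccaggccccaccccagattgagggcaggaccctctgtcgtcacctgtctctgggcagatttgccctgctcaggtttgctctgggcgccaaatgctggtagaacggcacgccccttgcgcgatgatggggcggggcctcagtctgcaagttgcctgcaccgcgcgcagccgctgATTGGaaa
Psmb8, chr17:34197945-34198194, plus strand: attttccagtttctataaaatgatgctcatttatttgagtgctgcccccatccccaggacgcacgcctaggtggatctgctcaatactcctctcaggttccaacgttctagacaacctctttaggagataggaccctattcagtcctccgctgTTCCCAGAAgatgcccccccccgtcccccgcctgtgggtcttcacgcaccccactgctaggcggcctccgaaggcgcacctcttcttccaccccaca
Psmb10, chr8:105938393-105938642, minus strand: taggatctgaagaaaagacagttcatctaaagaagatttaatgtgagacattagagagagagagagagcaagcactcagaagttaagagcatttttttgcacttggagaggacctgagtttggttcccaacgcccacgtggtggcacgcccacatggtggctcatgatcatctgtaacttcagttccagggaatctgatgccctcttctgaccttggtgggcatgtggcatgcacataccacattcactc
Psme1, chr14:55578244-55578493, plus strand: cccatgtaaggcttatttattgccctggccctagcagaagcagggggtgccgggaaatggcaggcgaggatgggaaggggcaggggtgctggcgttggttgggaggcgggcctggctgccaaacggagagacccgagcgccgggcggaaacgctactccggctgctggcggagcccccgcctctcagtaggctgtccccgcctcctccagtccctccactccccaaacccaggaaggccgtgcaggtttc
Psmb5, chr14:54617996-54618055, minus strand: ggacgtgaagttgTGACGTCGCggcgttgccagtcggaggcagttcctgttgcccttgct

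Among these stretches, Psmb8 held 1 GAS match, which begins 97 bases before its start, the Psmb9 to Tap1 stretch held 1 CCAAT match on the opposite strand, and Psmb5 held 1 ARE match that begins 47 bases before its start. The windows of Psmb10 and Psme1 held none of the 4 motifs. The promoter table matched 39 of the 47 members, with 41 windows. A GAS match stood in 4.88% of these windows (Psmb8 and Psmg1) and in 7.02% of the 32851 windows of the table. The ISRE core stood in 7.32% of member windows (Psmb3, Psmd4 and Psmd9) and 7.13% of all windows. With 1 more A at the end of the core, a form searched before it was shortened, the same 3 genes matched and the share of all windows was 2.98%. The ARE core stood in 12.2% of member windows, those of Psmb5, Psmb6, Psmc6, Psmd12 and Psmd9, and in 10.2% of all, and CCAAT in 34.1% and 33.8%. No matches of different motifs overlapped in the member windows. A match describes letters and is not a site, and its absence here says nothing of sequence outside the window.

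The rest of the 20S core leaned towards CD8+ DCs by small amounts. Of its 14 measured constitutive subunits, 12 were higher in CD8+ DCs, beside 52.6% of all measured genes. Their median log2 difference was 0.13, beside 0.03 over all measured genes. The highest value of the 14 was 0.39, and none reached 1.5-fold. In the α ring, which gates the entrance to the barrel, 6 of 7 were higher and the median was 0.12. Psma3 (α7) led at 11.30 against 10.91, or 1.31-fold. Its 2 probe sets differed by 0.39 and, on the dimmer one (6.16 against 5.01), by 1.16. Psma5 (α5) was at 10.33 and 10.00, and 2 measured probe sets differed by 0.34 and 0.37. Psma4 (0.15) and Psma7 (0.12) followed. Psma6 (0.04), Psma1 (0.03) and Psma2 (-0.01) were level on both arrays.

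Among the β subunits without a catalytic site, 3 of 4 were higher in CD8+ DCs, beside 52.6% of all measured genes. Psmb1 (β6) was at 10.73 and 10.43, with probe sets between 0.13 and 0.30. Psmb4 (β7) was at 10.74 and 10.48, and both probe sets differed by 0.26. Psmb2 (β4) was at 9.18 and 9.14. Psmb3 (β3) was at 9.29 and 9.44, and its probe sets differed in sign (-0.15 and 0.03).

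The 19S particle showed no such lean. Of its 17 measured subunits, 7 were higher and 10 lower in CD8+ DCs, beside 52.6% and 44.8% of all measured genes. The median was -0.02 (0.03 over all measured genes), and the values ran from -0.29 to 0.26. Neither direction held a subunit past 1.5-fold or past the probe set SD of 0.30. In the 20S core with the inducible subunits, 14 of 17 were higher in CD8+ DCs, the median was 0.15 and 5 exceeded 0.30. Of all measured genes, 57.4% differed by less than 0.30 in either direction, and the upper quartile was 0.26. Whether the cores and the particles differ could not be tested with 1 array per group.

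The 6 ATPases of the base, which unfold substrates, had a median of 0.03 and lay between -0.14 and 0.18. Psmc5 (Rpt6) was at 8.86 and 8.68, and Psmc3 (Rpt5) at 9.46 and 9.34. Psmc6 (Rpt4) was at 8.97 and 9.11, with 3 probe sets between -0.33 and -0.14, the lowest from a probe set near the floor (3.91 and 4.25). Psmc4 (Rpt3) was at 9.29 and 9.22, with probe sets at -0.07 and 0.06. Psmc1 (-0.01) was level, and Psmc2 was at 9.55 on both arrays, with a second measured probe set at -0.10. Of the other base subunits, the ubiquitin receptor gene Psmd4 (Rpn10) was at 9.37 and 9.59. Its 3 probe sets disagreed, between -0.22 and 0.39. Of the scaffold genes, Psmd2 (Rpn1) was at 9.07 in CD8- DCs with a log2 difference of -0.08, and Psmd1 (Rpn2) was at 8.36 and 8.26.

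In the lid, 6 of 8 subunits were lower in CD8+ DCs (44.8% of all measured genes were) and the median was -0.09. Psmd8 (Rpn12) was lowest, at 9.69 against 9.98. Psmd14, the gene of the deubiquitinase Rpn11 that removes ubiquitin chains as substrates enter, was at 9.80 and 9.93. Psmd12 (Rpn5) was the highest at 8.13 against 7.87, and Psmd7 (Rpn8) was at 7.56 and 7.45. Psmd13 (Rpn9) had 4 measured probe sets between -0.12 and 0.39, the highest from a probe set near the floor (3.90 and 3.51). Psmd11 (Rpn6) had 6 measured probe sets between -0.02 and 0.39. The direction of the lid depended on the probe sets used. With all probe sets of a gene averaged, its median was 0.056.

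**Figure D3:**
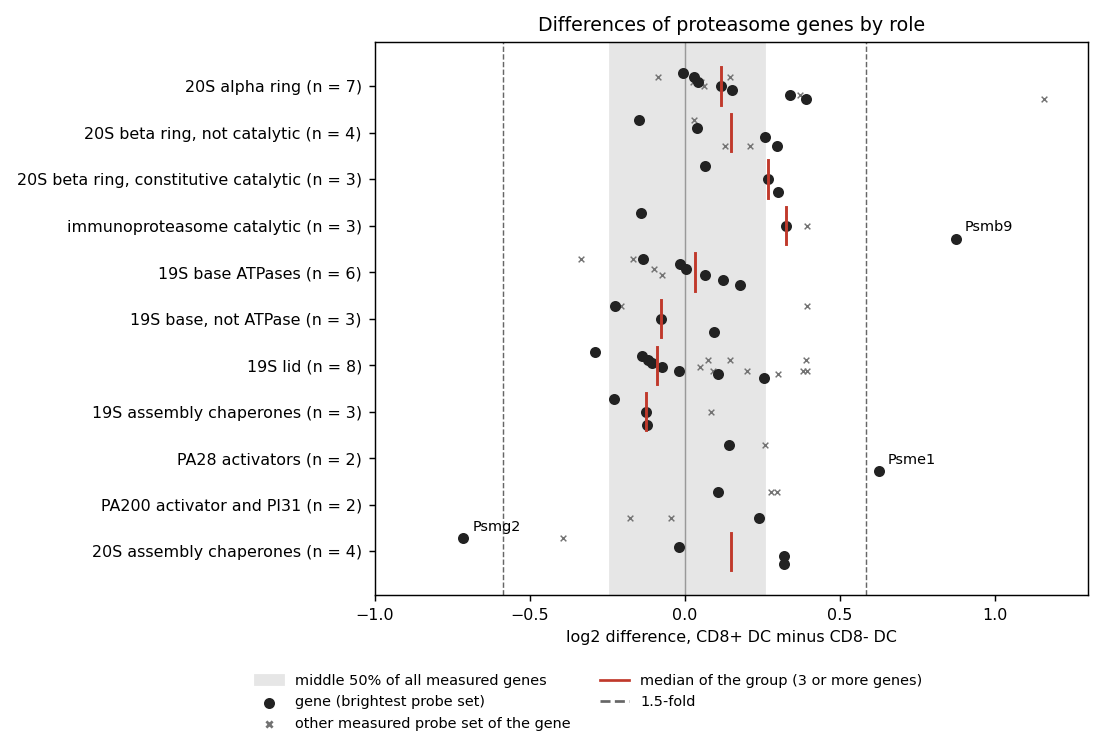
Log2 difference, CD8+ DC minus CD8- DC, of each measured proteasome gene by role (points), with its other measured probe sets (crosses), group medians (red bars), the middle 50% of all measured genes (grey, -0.24 to 0.26) and 1.5-fold (dashed). Points of the 20S groups lie mostly right of 0 and those of the 19S lid and its chaperones mostly left; Psmb9, Psme1 and Psmg2 lie past 1.5-fold.

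Of the activators, Psme1 stood past 1.5-fold. It encodes PA28α, a subunit of the interferon-γ-inducible cap that opens the core and is known for its part in making class I peptides. Its CD8+ signal of 11.09 stood against 10.46, 1.54-fold, on 1 probe set. The next member below 1.5-fold on the CD8+ side was Psma3, well short of it at 1.31-fold. Psme3, which encodes the nuclear activator PA28γ, was at 7.41 and 7.27, with log2 differences of 0.14 and 0.26 on its measured probe sets. Psme4, which encodes the activator PA200, was at 8.10 and 7.99, with 4 measured probe sets between 0.11 and 0.30. Psmf1, which encodes PI31, was at 7.00 and 6.76, and its 3 measured probe sets lay between -0.18 and 0.24.

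The assembly factors split. Psmg1 to Psmg4 encode the chaperones PAC1 to PAC4, which build the α ring. Psmg2 (PAC2) was at 7.01 on the CD8+ array and 7.73 on the CD8- array, a 1.64-fold difference, the largest difference of any member in that direction. Its 2 measured probe sets differed by -0.71 and -0.39. The gene next to it on that side, Psmd8, was 1.22-fold higher in CD8- DCs. With all 3 Psmg2 probe sets averaged, including 1 below the floor, the difference was -0.24 and no member was past 1.5-fold in CD8- DCs. Psmg1 (PAC1), the partner of Psmg2 in a heterodimer, was level at 7.45 and 7.47. Psmg3 (7.78 and 7.46) and Psmg4 (7.68 and 7.36), which also pair with each other, were each 1.25-fold higher in CD8+ DCs. With all probe sets averaged, Psmg4 turned to -0.02 through a probe set below the floor, and the median of the 4 genes was -0.020, against 0.15. The 3 chaperone genes of the 19S base, Psmd5 (7.27 and 7.50), Psmd9 (6.18 and 6.31) and Psmd10, which encodes gankyrin (7.41 and 7.53), were all slightly lower in CD8+ DCs. Each of these differences was smaller than the probe set SD of 0.30, and a second measured Psmd9 probe set had the other sign (0.09). Of all measured genes, 44.8% were lower in CD8+ DCs.

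Genes that work with the proteasome gave a mixed picture. Of 14 measured genes of proteasome-associated proteins, 7 were higher and 6 lower in CD8+ DCs, beside 52.6% and 44.8% of all measured genes. The median was 0.01. Of all measured genes, 8.49% passed 1.5-fold on the CD8+ side and 11.5% on the CD8- side. In this list 2 of 14 did, both on the CD8- side. These were Zfand5, a zinc finger protein gene that promotes proteasome activity (10.17 and 10.88, with 6 probe sets between -0.94 and -0.66), and Akirin2, whose product takes proteasomes into the nucleus (8.43 and 9.08). Pomp, the maturation factor of the 20S core, was at 11.06 and 10.53, or 1.44-fold. Ubqln2, which encodes a shuttle for ubiquitinated proteins, had probe sets of opposite sign (-0.37 and 0.42). All 5 measured genes of the ubiquitin list were under 1.5-fold, and 4 were higher in CD8+ DCs (median 0.22). The segregase gene Vcp was at 10.36 and 10.06, Ufd1 at 7.53 and 7.32 and Nploc4 at 6.68 and 6.52. Uba6, a ubiquitin-activating enzyme gene, was at 7.53 and 7.12, with 5 probe sets from -0.90 to 0.41.

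In the list of class I peptide supply and loading, 13 of 18 genes were higher in CD8+ DCs (52.6% of all measured genes were), with a median of 0.30. By at least 1.5-fold, 5 were higher (8.49% of all measured genes) and none was lower (11.5% of all measured genes). These 5 were Lap3, a cytosolic aminopeptidase gene (1.84-fold, 7.44 against 6.57), Tap2, Pdia3 (1.75-fold, 11.89 against 11.08) and Calr (1.59-fold, 10.44 against 9.78), which encode chaperones of peptide loading, and Erap1, the aminopeptidase of the endoplasmic reticulum (1.52-fold, 7.68 against 7.07). For Erap1, 2 probe sets gave 0.16 and 0.61. The class I chain genes were level or slightly lower in CD8+ DCs (H2-K1 12.18 and 12.48, B2m 12.90 and 13.14).

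Regulators known to act on proteasome genes were mostly lower in CD8+ DCs, at 9 of 11 measured, beside 44.8% of all measured genes, with a median of -0.30. Of these, Nfe2l2, which encodes the oxidative stress factor Nrf2, was past 1.5-fold (8.02 and 8.84, or 1.77-fold, with probe sets at -1.23 and -0.82). Irf8 was the 1 gene past 2-fold, 3.22-fold higher in CD8+ DCs (11.91 against 10.23). Nfe2l1, whose product restores proteasome synthesis when proteasomes are inhibited, was at 6.79 and 6.61. Irf1, which takes part in the interferon-γ induction of Psmb9, was at 7.88 and 8.19. Foxo4 was low at 4.52 and 5.03, and Nfya was at 7.47 and 7.92. Other interferon-γ-induced genes divided. Of 14 measured genes, 2 lay past 1.5-fold on the CD8+ side and 6 on the CD8- side once dim values were raised to the floor. Over all 11404 measured genes treated alike, these numbers were 887 and 1244. The median of the 14 genes was -0.01 (0.06 as measured). Ido1 (3.85 and 2.62) passed 1.5-fold only as measured, since its higher value lies at the floor. Cxcl9 was 5.93-fold higher in CD8+ DCs, while Cd274 (4.81-fold), Gbp2 (3.42-fold) and Gbp3 (at least 2.77-fold, 3.62 in CD8+ DCs being below the floor) were higher in CD8- DCs. The 13 measured cell cycle genes were all lower in CD8+ DCs (44.8% of all measured genes were), with a median of -0.99. Their part in the proteasome values was not tested.

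**Figure D4:**
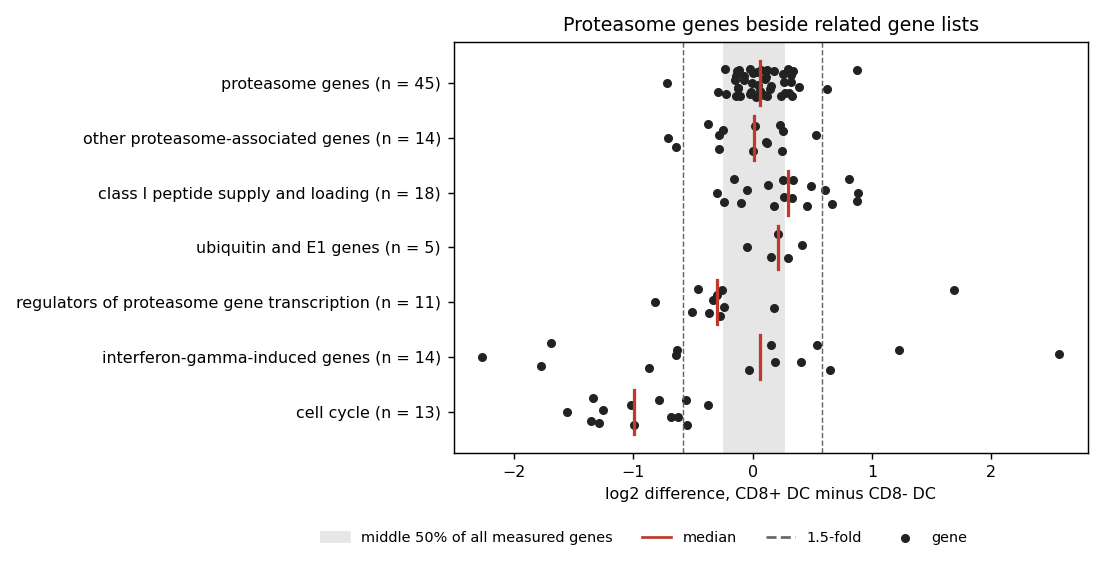
Log2 difference, CD8+ DC minus CD8- DC, of the measured genes in each list (points), with the list's median (red bar), the middle 50% of all measured genes (grey) and 1.5-fold (dashed). The 45 proteasome genes are centred near 0 (median 0.06), the class I list lies to the right (0.30), and the regulators (-0.30) and cell cycle genes (-0.99) lie to the left.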

How the data were processed

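The deposited table holds log2 signals of 45101 probe sets, made by the authors with RMA, per the submitters' processing notes. This method subtracts background, gives arrays one distribution and summarises probes by median polish, which hides a shift common to most genes. For its version, the genome build and which arrays were processed jointly, nothing is given in the sources used here. Names came from the platform annotation, and symbols were updated by gene identifier against RefSeq (GRCm38.p6). Of these, 34958 had 1 gene symbol, 34754 of them matched by identifier, 932 had several and 9211 were not listed.

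The brightest probe set by the mean of both arrays stood for a gene. Differences are CD8+ minus CD8- on the log2 scale, described at 1.5-fold and 2-fold. A value below the floor (3.85) was set to the floor for an "at least" fold. With 1 array per group no test was possible, and the number of arrays limits the precision. The members and lists were chosen with earlier results of these data known. In each role group and list, up to 4 genes with the largest differences were to be named, with all catalytic subunits and activators. Other members and the class I, regulator and ubiquitin genes beyond these were chosen for naming with their values known. The alternatives tried were centring on medians, lowess (span 0.3), no floor, a floor at the 75th percentile, averaged probe sets, no _x_at or _s_at probe sets, and values raised to the floor. Python 3.11.15, numpy 2.4.6, pandas 2.3.3 and statsmodels 0.14.6 were used. The calculations were tested on simulated data with planted differences larger than those of the members. Recovery of smaller differences was not tested.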

Additional observations from a re-analysis of the deposited data

How the results depend on the processing

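The 7 alternatives were applied to 21 summaries and to the 45 measured members, each alternative changing 1 choice. Among the summaries, 144 of 147 values stayed close to those reported, meaning within 1.5 times for a count and otherwise within the SD between probe sets of a gene, divided by the root of the number of genes for a median. The 3 that moved did so with all probe sets of a gene averaged: the number of members at least 1.5-fold higher in CD8- DCs was 0, the median of the 19S lid was 0.056 and that of the 20S assembly chaperones was -0.020. Averaging takes in probe sets below the floor. Over the 7 alternatives the number of members at least 1.5-fold higher in CD8+ DCs was 2 or 3, the third being Psma3 with averaged probe sets (0.77). The median of all members lay between 0.03 and 0.09, that of the 14 constitutive core subunits between 0.10 and 0.14, and that of the 19S particle between -0.07 and -0.004. Psmb9 lay between 0.84 and 0.87 and Psme1 between 0.59 and 0.63. Averaging changed the sign of 7 of 45 members (Psmc1, Psmc2, Psmc4, Psmd11, Psmd13, Psmf1 and Psmg4), and centring, lowess or dropping the cross-hybridising probe sets changed that of 2, 3 and 2, whose new values were at most 0.10 in size. No paired analysis was possible because each group has 1 array. Signals of the brightest probe sets of the measured members stand well above the floor, so background limits them little. Some of their dimmer probe sets lie near the floor, and saturation at the bright end was not tested.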

Other observations

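Some probe sets for proteasome genes or their partners fell outside the membership rule. The probe set for PA28β, the partner of PA28α in the same cap, is shared by Psme2 and the near-identical Psme2b, so its value cannot be given to 1 gene. It was at 10.86 on the CD8+ array and 10.74 on the CD8- array, a log2 difference of 0.12, beside 0.63 for Psme1. Psmc3ip, which despite its name encodes a meiotic recombination protein, was lower in CD8+ DCs on both of its probe sets, at 5.12 against 5.76 and 5.15 against 5.63. Psme3ip1, which encodes a protein that binds PA28γ, was at 7.86 and 7.89.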
